A study of Mus musculus with 6 samples.

Results

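The genes described here encode 7 intracellular carriers of fatty acids, acyl-CoA and sterols: Fabp1, Fabp2, Fabp4, Fabp5, Fabp7, Scp2 and Dbi. They are 7 of the 20914 genes in the deposited count table, each has a row of its own, and all 7 passed the filter on low counts. The set was chosen on measured values, namely the difference of Fabp1 and Scp2 between the DOX and PBS libraries and the low level of Fabp1 for a liver. These differences and levels are therefore given as a description, and where carriers are counted among the genes called in the fit across all genes, nothing is read from the count. Mouse liver RNA was sequenced in 6 libraries, of which 3 bear the label PBS and the other 3 the label DOX. Each has the genotype label BucheKI/KI-Hep, with CKI and Alb-Cre in its title, so that both groups share the knock-in and the Cre gene, which the albumin promoter drives in hepatocytes. All 6 are also labelled as treated with BDL, which in mouse liver work usually stands for bile duct ligation. The design text speaks of butyrylcholinesterase overexpression in hepatocytes. The labels used here explain neither DOX nor S10D and CKI, and whether each library is a different mouse is not stated either. The errors and p-values below therefore cover only how these libraries spread, and that spread may be technical.

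Long-chain fatty acids and sterols dissolve poorly in water, and cells move them bound to small cytosolic proteins. Fatty acid binding proteins (FABPs) share a barrel-shaped fold that encloses the ligand, and each tissue uses its own members: Fabp1 is the liver form, usually among the most abundant transcripts of hepatocytes and enterocytes. Fabp2 is the intestinal form, Fabp4 that of adipocytes, some macrophages and capillary endothelium, Fabp5 the epidermal form with a wide distribution, and Fabp7 the brain form of glial cells. Dbi encodes acyl-CoA binding protein, which carries activated fatty acids. Scp2 encodes sterol carrier protein 2, and from an upstream start the longer SCPx, a peroxisomal thiolase that shortens the side chain of branched fatty acids and bile acid precursors. The counts pool all transcripts of a gene, so that SCPx and sterol carrier protein 2 were not separated.

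Fabp4 and Fabp5 lie near each other on chromosome 3, and the other carriers lie far from them or on other chromosomes. In GRCm38 (GENCODE M21), Fabp1 spans chr6:71199827-71205023, Scp2 chr4:108043839-108144998 and Dbi chr1:120113280-120121078, all protein coding. Fabp2 spans chr3:122895072-122899506, Fabp4 chr3:10204088-10208576, Fabp5 chr3:10012548-10016607 and Fabp7 chr10:57784881-57788450. Fabp2 overlaps an antisense gene, 4933405D12Rik, which held at most 1 count in a library. Scp2 overlaps Podn on the same strand, which had 29 to 122 counts in a library against 38131 to 90947 for Scp2. Pseudogenes of Scp2 and a copy of Fabp5 are annotated in the mouse, and the treatment of reads shared with them is unknown, which makes the Scp2 and Fabp5 counts uncertain to that extent.

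The 250 bases before the start that RefSeq annotates are shown for Fabp1 and Scp2, the carriers whose DOX libraries lay furthest above the PBS libraries, to set their starts side by side. The sequences are RefSeq's (GRCm38.p6), each 5′ to 3′ on the strand of the gene, at chr6:71199629-71199878 (plus strand) for Fabp1 and chr4:108118548-108118797 (minus strand) for Scp2. The Scp2 window lies inside the GENCODE span given above, because some annotated Scp2 transcripts start further upstream. Whether the start shown is that of SCPx or of the shorter sterol carrier protein 2 was not determined. Capitals mark matches to 3 searched patterns on either strand. The first is a direct repeat of the half-site AGGTCA after 1 base, with at most 2 mismatches, the kind of element bound by PPAR with RXR and by HNF4A. The others are the exact words TATAAA and GGGCGG.
Fabp1: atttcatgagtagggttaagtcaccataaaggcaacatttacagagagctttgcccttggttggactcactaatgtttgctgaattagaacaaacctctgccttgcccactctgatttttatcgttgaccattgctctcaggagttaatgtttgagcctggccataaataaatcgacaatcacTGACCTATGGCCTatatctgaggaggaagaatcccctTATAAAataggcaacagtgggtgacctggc
Scp2: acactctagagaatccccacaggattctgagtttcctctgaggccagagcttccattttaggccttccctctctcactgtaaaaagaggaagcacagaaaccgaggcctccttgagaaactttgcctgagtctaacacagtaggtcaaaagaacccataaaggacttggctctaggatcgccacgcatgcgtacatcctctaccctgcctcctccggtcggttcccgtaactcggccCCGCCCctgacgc

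The Fabp1 window held 1 such repeat, TGACCTATGGCCT, read on the minus strand with 1 mismatch and lying 67 to 55 bases before the start. It also held TATAAA 30 to 25 bases before the start. Both distances are from the RefSeq start: the GENCODE span given above begins further upstream, so that the TATAAA lies inside that span. Of 32851 promoter windows of the same length in the table, 3.24% held the repeat and 12.4% held TATAAA. Scp2 had neither and held GGGCGG once, as 32.7% of the windows did at least once. The Fabp1 window had 42.8% G or C and 2 CG pairs, against 53.6% and 10 pairs in Scp2. Windows for Fabp2 and Fabp7 held none of the patterns, and Fabp4 and Fabp5 were not matched to a window. A match is a description of the letters, not a site that was shown to be used.

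The libraries held 32826493 to 41102844 counts. A detection floor of 3 counts corresponds to 0.073 to 0.0914 CPM before TMM scaling. Every carrier lay far above it, the lowest count being 194 for Fabp4 in DOX replicate 2. Bche, the targeted gene, stood at 192.8 to 244.9 CPM in PBS and at 447.5 to 969.2 CPM in DOX. Hepatocyte markers identified the tissue, with a summed level of 52471 to 57218 FPKM in PBS and 57621 to 80279 in DOX over the 11 of 12 markers matched. Their median log2 fold change was only 0.10, with 7 of the 11 above 0. Much of the sum was albumin, at 23632.4 to 28200.5 FPKM in PBS and 29541.9 to 49629.3 in DOX. FPKM are the deposited values scaled by gene length and library total, and CPM are counts scaled to a common library size with TMM, a correction for library composition. Albumin transcripts took 10.1% and 10.2% of the counts in DOX replicates 1 and 3 and 4.87% to 6.09% in the other libraries. PBS replicate 2 had the lowest summed endothelial level (14.3 FPKM, others 39.8 to 75.0) and the highest cholangiocyte level (250.2 FPKM, others 76.3 to 202.0). All 10 cholangiocyte markers had a negative log2 fold change (median -0.66). EdgeR called 0 of them, with 5 lower at an unadjusted p under 0.05, and DESeq2 called 2 lower, Tspan8 and Cdh1. Over all genes, in either direction, these shares were 0.0291%, 9.90% and 1.19%. The part of this cholangiocyte shift in the carrier values was not tested.

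Per length, the 7 carriers fell into 2 tiers. Dbi and Scp2 were first and second in all 6 libraries, and together made up 92.0% to 92.4% of the summed carrier FPKM in PBS and 78.3% to 92.5% in DOX. By group mean Fabp1 and Fabp5 came next, then Fabp7, while Fabp4 and Fabp2 were lowest. Fabp4 stood at 8.53 ± 1.56 FPKM in PBS and Fabp2 at 8.20 ± 3.19 (SD, n = 3), and their order differed between libraries. Among the 20914 genes ranked by mean FPKM, Dbi ranked 101 in PBS and Scp2 152, against 1992 for Fabp1, 1753 for Fabp5, 2477 for Fabp7, 4269 for Fabp4 and 4370 for Fabp2.

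**Figure D1:**
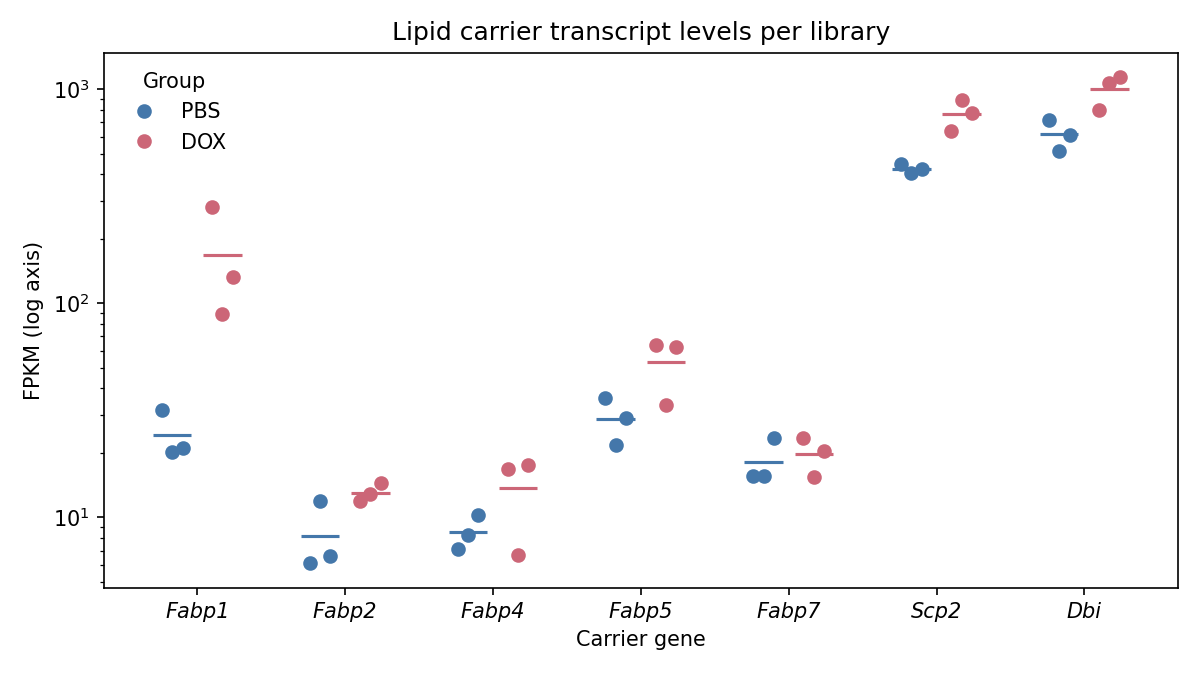
FPKM (log axis) of the 7 carrier genes in each of the 3 PBS and 3 DOX libraries; points are libraries in the order of their replicate numbers and lines are group means. Dbi and Scp2 lie above 400 FPKM in every library, and Fabp1 lies between 20.2 and 31.8 FPKM in PBS and between 89.0 and 281.9 in DOX.

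Fabp1, the liver fatty acid binding protein, was low in the PBS libraries. It had 31.8, 20.2 and 21.1 FPKM in PBS replicates 1, 2 and 3, from 661, 339 and 379 counts. In the DOX libraries it had 281.9, 89.0 and 132.3 FPKM, from 5629, 1537 and 2785 counts. The groups did not overlap, and the lowest DOX library lay 2.98 times above the highest PBS library in CPM. Replicate 1 was the highest library of each group. The mean went from 11.9 ± 2.92 CPM in PBS to 90.3 ± 54.0 CPM in DOX (SD, n = 3 each), a log2 fold change of 2.92 (SE 0.41) or 7.58-fold. That difference, on which Fabp1 was chosen, stood at the 99.93rd percentile of the log2 fold changes of the 13725 genes tested. DOX libraries also spread more among themselves, with a highest-to-lowest ratio of 3.31 against 1.5 in PBS. Alb also stood higher in DOX replicates 1 and 3 (105048 and 113495 CPM) than in DOX replicate 2 (60634 CPM) and in PBS (45625 to 57734 CPM), and its part in the Fabp1 values was not tested. In bulk RNA, fewer cells that express a gene and less RNA per cell cannot be told apart.

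The Fabp1 level was set beside those of other liver transcripts in the same libraries. A list of 25 abundant liver genes, many of them short, was set beside Fabp1, whose length behind the deposited FPKM is 512 bases. The genes were listed for their known abundance in liver, so a position of Fabp1 among the lowest is a description against abundant genes only. In all 3 PBS libraries Fabp1 was below 24 of the 25, the exception being Apoc2, an apolipoprotein of triglyceride-rich particles (2.92 to 3.39 FPKM). The list's median was 44.1, 63.1 and 64.6 times the Fabp1 level in PBS replicates 1, 2 and 3. It was 4.31, 15.5 and 10.7 times that level in DOX replicates 1, 2 and 3. Even in DOX replicate 1, its highest library, Fabp1 exceeded 3 of the 25, which were Apoc2, Hamp2 and Akr1c6. Genes of similar length were abundant: Hamp, the hepcidin gene (407 bases), had 2892 to 3746 FPKM in PBS and Apoc1 (554 bases) had 2774 to 3348. Apoc4, at 518 bases the closest in length, had 301.1 to 321.9 FPKM. Of 545 genes with a length of 400 to 600 bases, 81, 98 and 93 lay above Fabp1 in PBS replicates 1, 2 and 3, and 28, 55 and 45 in the DOX replicates, so that most genes of such length were not above it in any library. Alb, the albumin gene, was 742.9 to 1398 times above Fabp1 in PBS and 173.7 to 375.0 times in DOX.

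**Figure D2:**
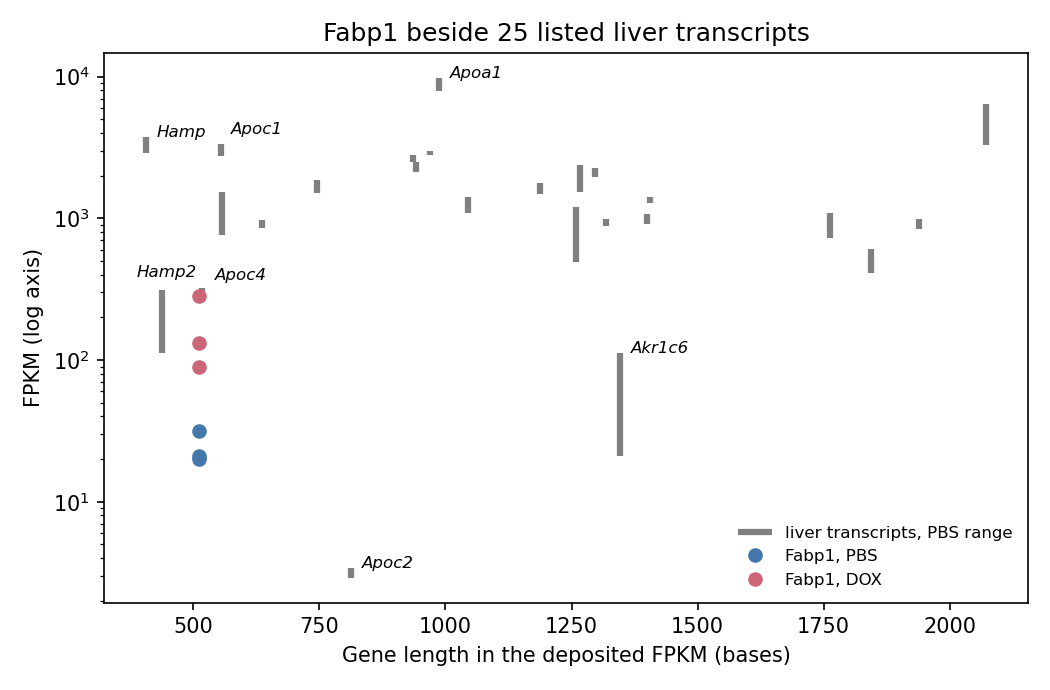
FPKM (log axis) against gene length in bases for 25 listed liver transcripts (grey bars, range over the 3 PBS libraries) and for Fabp1 in each library. The 3 PBS points of Fabp1, at 20.2 to 31.8 FPKM, lie well under Hamp, Apoc4 and Apoc1 of similar length.

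Scp2, the sterol carrier gene, was the carrier with the least spread among the PBS libraries. It had 1195, 1154 and 1135 CPM in PBS replicates 1, 2 and 3, and 1890.0, 2525 and 2455 CPM in the DOX replicates. All DOX libraries lay above all PBS libraries, by at least 1.58 times. The means were 1161 ± 30.8 and 2290.2 ± 348.4 CPM (SD, n = 3 each), a log2 fold change of 0.98 (SE 0.16) or 1.97-fold. In PBS the standard deviation was 2.65% of the mean, against 24.6% for Fabp1, and in DOX it was 15.2% against 14.6% for Fabp2, the lowest there. Unlike Fabp1, Scp2 was lowest among the DOX libraries in replicate 1.

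Dbi, the acyl-CoA carrier, had 502.5, 379.5 and 427.6 CPM in the PBS replicates and 619.9, 789.0 and 939.7 CPM in the DOX replicates. Again the groups did not overlap, with the lowest DOX library 1.23 times above the highest PBS library and DOX replicate 1 the lowest of its group. Its log2 fold change came to 0.84 (SE 0.18), which is 1.79-fold. The ratio of Dbi to Scp2 per length ranged from 1.26 to 1.61 in PBS and from 1.20 to 1.47 in DOX, so that the ranges of this ratio overlapped while both genes were higher in DOX.

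Fabp5, the epidermal form, had 32.1, 20.6 and 25.9 CPM in PBS and 63.6, 31.9 and 66.1 CPM in DOX. DOX replicate 2 lay just under PBS replicate 1, so the groups overlapped by that single library, and the log2 fold change was 1.04 (SE 0.27). Macrophages, which can express Fabp5, were represented by 14 of 14 listed markers, with a summed level of 943.6 to 1018 FPKM in PBS and 703.7 to 1015 in DOX. Of the keratinocyte list, 6 of 7 genes were under 1 FPKM in every library, the exception being Sfn.

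Fabp2, the intestinal form, had 5.52, 11.4 and 5.99 CPM in PBS and 11.9, 12.3 and 15.5 CPM in DOX. PBS replicate 2 reached nearly the DOX level, and the lowest DOX library exceeded it 1.05 times (447 against 376 counts). The log2 fold change was 0.80 (SE 0.27), and 1.20 without PBS replicate 2. Intestinal RNA was looked for with 10 enterocyte markers. Alpi, Sis, Cdx1 and Cdx2 were not matched to a row, and Vil1, Lct, Krt20 and Cdh17 were under 1 FPKM in every library. The list's summed level, 73.4 to 127.8 FPKM in PBS and 115.3 to 335.2 in DOX, came mainly from Apoa4 (50.4 to 105.9 and 94.9 to 313.3 FPKM), an apolipoprotein that mouse liver also makes. Apoa4, like Fabp1, was highest in DOX replicate 1 and lowest among the DOX libraries in replicate 2.

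Fabp4, the adipocyte and endothelial form, had 5.77, 7.11 and 8.27 CPM in PBS and 15.1, 5.73 and 16.8 CPM in DOX. DOX replicates 1 and 3 were above all PBS libraries and DOX replicate 2 was below them, with a log2 fold change of 0.84 (SE 0.36). The log2 fold change was above 0 for all 10 endothelial markers (median 0.81), though edgeR and DESeq2 called 0. At an unadjusted edgeR p under 0.05, 1 was higher, against 9.90% of all genes in either direction. These markers summed to 51.4, 14.3 and 51.4 FPKM in the PBS replicates and 75.0, 39.8 and 64.4 FPKM in the DOX replicates. Their highest libraries, DOX replicates 1 and 3, were also those of Fabp4, and DOX replicate 2 was the lowest DOX library in both. PBS replicate 2, with the lowest endothelial level of all, was not the lowest for Fabp4. The part of endothelial RNA in the Fabp4 values was not tested. Of the adipocyte list, Adipoq, Cfd and Lep were not matched to a row, Plin1, Retn and Cidea were under 1 FPKM in every library, and the list summed to 3.12 to 6.73 FPKM in PBS and 3.31 to 8.59 in DOX.

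Fabp7, the glial form, had 11.2, 11.8 and 16.7 CPM in PBS and 18.7, 11.7 and 17.3 CPM in DOX. The ranges overlapped over most of their width, and the log2 fold change of 0.27 (SE 0.21) was the smallest of the 7. Of the glial and neural list, 6 of 7 genes were under 1 FPKM in every library, Prnp at 8.38 to 12.4 FPKM being the exception.

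**Figure D3:**
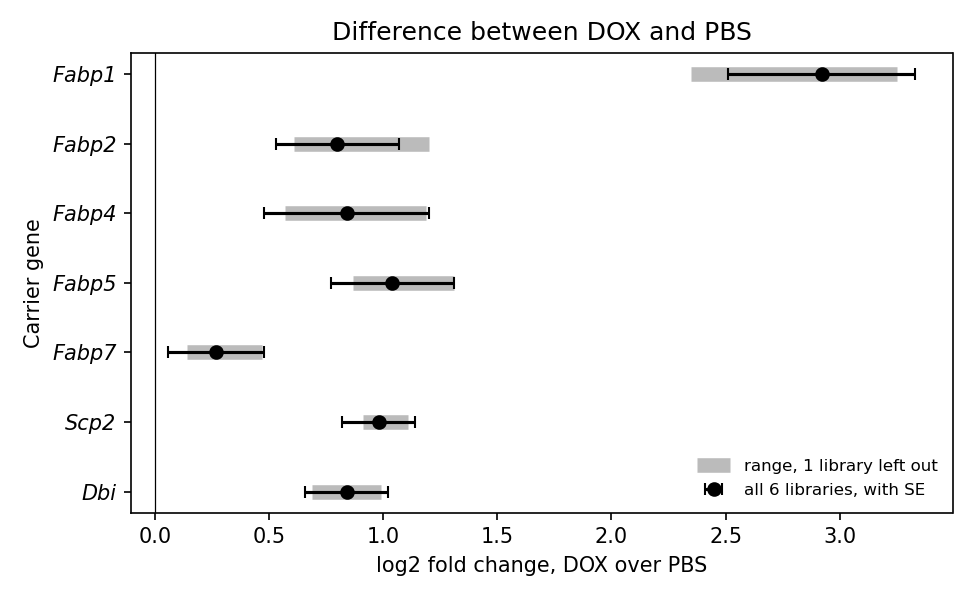
Log2 fold change of DOX over PBS for each carrier (points, with standard errors from the edgeR fit) and the range of the same value when 1 of the 6 libraries was left out (grey). Fabp1 lies at 2.92, the other carriers between 0.27 and 1.04.

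The log2 fold change was above 0 in all 7 carriers (median 0.84), and in 47.0% of the genes tested (median -0.015). Scaled by library size only, which shifts the median of all genes to -0.149, the carriers ranged from 0.12 for Fabp7 to 2.78 for Fabp1. In 4 of the 7, Fabp1, Fabp2, Scp2 and Dbi, all DOX libraries lay above all PBS libraries, a pattern found in 7.84% of the genes tested. Across all genes, edgeR's quasi-likelihood test at a Benjamini-Hochberg adjusted p under 0.05 called 0 of the 7, and called 0.0291% of all genes. At an unadjusted p under 0.05 it gave 6 of the 7, against 9.90% of all genes. DESeq2 called 4 of the 7 (Fabp1, Fabp5, Scp2 and Dbi), against 1.19% of the genes to which it gave an adjusted p. Since the set was chosen for this very contrast, nothing is read from these counts.

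Within the FABPs, the gene with the highest level was not the same in both groups. Fabp5 was the most abundant of the 5 per length in all 3 PBS libraries, with Fabp1 at 0.884, 0.925 and 0.728 times its level. In all 3 DOX libraries Fabp1 was the most abundant, at 4.39, 2.65 and 2.12 times Fabp5. Fabp1 made up 32.9%, 25.9% and 23.4% of the summed FABP level in the PBS replicates and 70.8%, 56.5% and 53.5% in the DOX replicates. Fabp7 went the other way as a share, from 16.2% to 25.9% in PBS to 5.91% to 9.81% in DOX, while its own level ranged from 15.6 to 23.4 FPKM in PBS and from 15.5 to 23.5 in DOX. In PBS replicate 3, Fabp7 was above Fabp1. The summed FABP level was 77.7 to 96.7 FPKM in PBS and 157.6 to 398.3 FPKM in DOX.

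**Figure D4:**
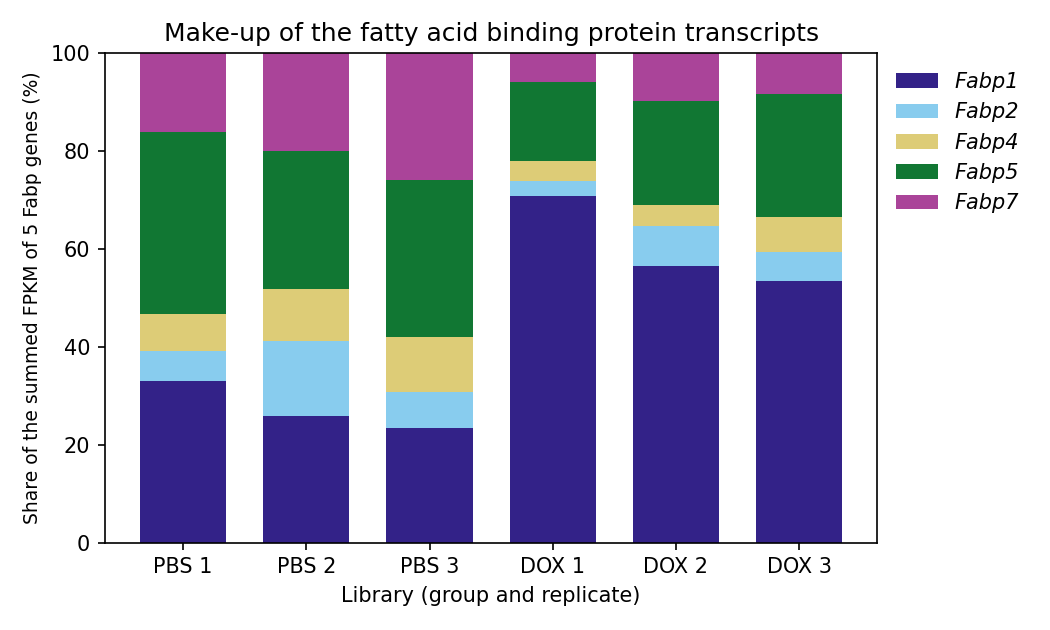
Share (%) of each gene in the summed FPKM of the 5 fatty acid binding protein genes, for each library. Fabp1 takes 23.4% to 32.9% in the PBS libraries and 53.5% to 70.8% in the DOX libraries.

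The order of libraries within a group differed between carriers. DOX replicate 2 was the lowest DOX library for Fabp1, Fabp4, Fabp5 and Fabp7, whereas DOX replicate 1 was the lowest for Scp2, Dbi and Fabp2. Within PBS, Fabp1, Fabp5, Scp2 and Dbi were highest in replicate 1, Fabp4 and Fabp7 in replicate 3 and Fabp2 in replicate 2. After the group means were removed, the deviations over the 6 libraries had a Pearson r of 0.78 between Scp2 and Dbi, 0.79 between Fabp1 and Fabp5 and 0.87 between Fabp4 and Fabp7. Between Fabp1 and Scp2 it was -0.81, and between Fabp1 and Dbi -0.32. Fabp2 had 0.13 with Scp2 and -0.22 with Dbi. Over all pairs of carriers, the values ran from -0.81 to 0.87. These 6 points share libraries and scaling and have few degrees of freedom, so the values only describe these libraries.

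The genes whose log2 CPM over the 6 libraries were most like those of Fabp1, among 7744 tested genes with a mean of at least 10 CPM, were Hgfac, Reep3, Agtr1a, Ank and Tmx1 (Pearson r = 0.986 to 0.997). Their differences were far smaller than that of Fabp1, with log2 fold changes from 0.13 for Tmx1 to 0.69 for Ank (SE 0.10). Hgfac, the activator of hepatocyte growth factor, had 128.2, 119.1 and 117.2 CPM in PBS and 179.8, 147.7 and 165.5 in DOX. The genes most like Scp2 were Taldo1, Lsm4, Psmd14, Gabarap and Rapgef4 (r = 0.980 to 0.987), with log2 fold changes from 0.17 for Gabarap to 0.69 for Rapgef4. By Spearman's rho, 4 of the 5 genes stayed among the highest for Fabp1, where 18 genes tied at 1, and 0 of the 5 for Scp2, where 10 tied. A difference between the groups raises r on this measure, so it describes the group difference as much as the order within groups.

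Other members of the FABP and acyl-CoA binding families described here were low or not called. Among further lipid binding proteins of the FABP fold, Fabp3, the heart form, Fabp12, Rbp2, Rbp7 and Crabp2 were under 1 FPKM in every library. Of 5 tested genes with an acyl-CoA binding domain or substrate (8 listed), edgeR and DESeq2 called 0, edgeR also gave 0 at an unadjusted p under 0.05, and the median log2 fold change was -0.02 (-0.15 with library size only). Over all genes, in either direction, edgeR called 0.0291% and gave 9.90% at the unadjusted level, and DESeq2 called 1.19%. The same shares stand beside the counts of the lists that follow. Acbd5, which tethers peroxisomes to the endoplasmic reticulum, had 158.5 ± 7.51 CPM in PBS and 184.2 ± 37.0 in DOX. Acbd6 had 22.6 ± 1.30 and 20.4 ± 0.466 CPM.

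Proteins with an SCP2 domain, and other transfer proteins of sterols and phospholipids, had a median log2 fold change of 0.09 (-0.04 with library size only) over 28 tested genes of 31 listed. Both edgeR and DESeq2 called 0 of them. At an unadjusted p under 0.05 edgeR gave 3 higher and 0 lower, against 9.90% of all genes in either direction. Smallest in p were Gramd1c, a sterol transporter of the endoplasmic reticulum (22.1 ± 1.30 and 28.0 ± 1.73 CPM, edgeR adjusted p = 0.355), and Pctp, the phosphatidylcholine transfer protein (58.9 ± 9.21 and 100.9 ± 38.6 CPM, adjusted p = 0.400). Hsd17b4, the peroxisomal bifunctional enzyme that carries its own SCP2 domain, had a log2 fold change of 0.35 (SE 0.14, edgeR adjusted p = 0.484).

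Genes of fatty acid uptake and activation supply the ligands of these carriers. Of 16 tested (18 listed), edgeR called 0. At an unadjusted p under 0.05 it gave 5 higher and 0 lower, against 9.90% of all genes in either direction. Against 1.19% of the genes to which it gave an adjusted p, DESeq2 called 2 of the list higher. These were Slc27a2, a very long-chain acyl-CoA synthetase and transporter (687.3 ± 73.2 CPM in PBS, 1051 ± 153.2 in DOX), and Acsl3, an acyl-CoA synthetase (42.4 ± 6.39 and 62.9 ± 6.28 CPM). In the edgeR fit their adjusted p was 0.314 and 0.259, and with DESeq2 0.00884 and 0.029. For Acsl5, a synthetase of liver and gut, the log2 fold change was 0.47 (SE 0.14), and for Acsl1, the main liver form, 0.53 (SE 0.19). The median over the list was 0.15 (0.02 with library size only).

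Peroxisomal beta-oxidation, where SCPx acts, had a median log2 fold change of 0.17 (0.03 with library size only) over 19 tested genes. Both tools called 0. At an unadjusted p under 0.05 edgeR gave 2 higher and 0 lower, against 9.90% of all genes in either direction. Acaa1b, a thiolase of this pathway, had 84.6, 51.3 and 65.8 CPM in PBS and 94.8, 309.8 and 404.2 CPM in DOX (log2 fold change 2.0, SE 0.46, edgeR adjusted p = 0.259). Without DOX replicate 1 edgeR called 1 gene of this list, Acaa1b. Ehhadh, the bifunctional enzyme, had 233.6, 305.2 and 222.3 CPM in PBS and 187.0, 511.9 and 684.0 in DOX. Both were lowest among the DOX libraries in replicate 1, the library where Fabp1 was highest. The near-identical sequence of Acaa1a and Acaa1b makes the split of reads between them uncertain.

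Targets of PPAR alpha, the fatty acid receptor that acts on Fabp1, had a median of 0.19 (0.06 with library size only) over 23 tested genes of 24 listed, of which Cd36 also stands on the uptake list. EdgeR called 0, with 3 higher and 0 lower at an unadjusted p under 0.05, and DESeq2 called 1, Me1 (malic enzyme, 60.0 ± 5.02 and 116.5 ± 41.1 CPM, DESeq2 adjusted p = 0.00884, edgeR adjusted p = 0.288). Fgf21, the hormone of the fasting liver, had 0.909 ± 0.417 and 2.29 ± 0.870 CPM (edgeR adjusted p = 0.423). Cyp4a14, a fatty acid hydroxylase named here after its values were seen, had 17.7, 811.9 and 101.2 CPM in PBS and 129.7, 162.8 and 1130 CPM in DOX. Its highest libraries were PBS replicate 2 and DOX replicate 3, an order unlike that of Fabp1. Order differed between genes of the list, shown here by examples likewise named after their values were seen. Ucp2 had 91.8, 70.0 and 49.9 CPM in the DOX replicates, and Cpt2 had 71.8, 103.9 and 105.4 CPM. Angptl4 had 72.4, 65.3 and 66.7 CPM there, the order that Fabp1 had in DOX. Such examples do not stand for the list. A shared order with Fabp1 over the list was not tested.

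Of 19 tested transcription factors known from carrier promoters (20 listed), edgeR called 0, with 2 higher and 1 lower at an unadjusted p under 0.05, and the median was -0.10 (-0.23 with library size only). DESeq2 called 1, Srebf1, the regulator of lipid synthesis (156.0 ± 35.8 and 233.9 ± 6.77 CPM, DESeq2 adjusted p = 0.0495, edgeR adjusted p = 0.369). Ppara stood at 102.5 ± 10.8 and 95.1 ± 3.35 CPM and Hnf4a at 754.6 ± 43.4 and 703.8 ± 17.5 CPM. The 25 listed liver transcripts had a median of 0.19 (0.05 with library size only), with 0 called by either tool and 2 higher and 0 lower at an unadjusted p under 0.05; Apoa2, smallest in p, had a log2 fold change of 0.54 (SE 0.19).

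**Figure D5:**
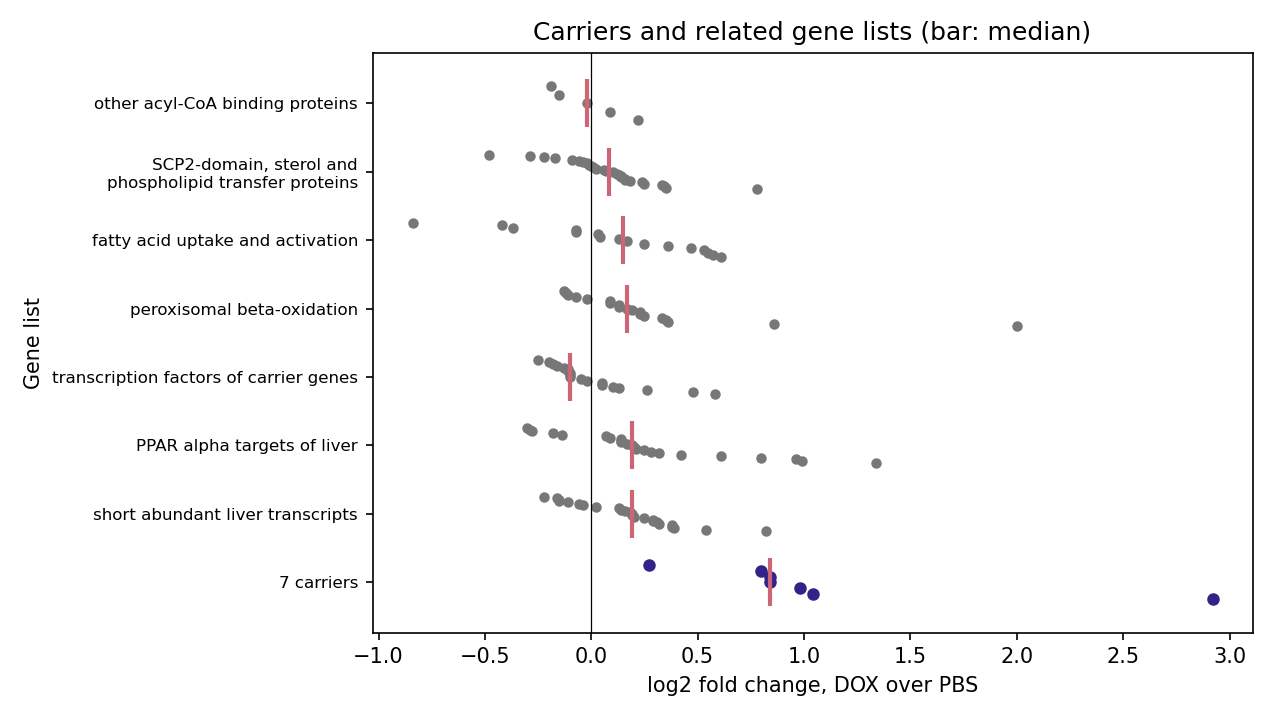
Log2 fold change of DOX over PBS for each tested gene of 7 related lists (grey points, 1 gene each) and for the 7 carriers (blue points), with the median of each as a bar. The list medians lie between -0.10 and 0.19, and that of the carriers, which were chosen on this contrast, at 0.84.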

How the data were processed

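Total liver RNA entered libraries made with a SMARTER mRNA-Seq kit, per the labels' protocols. Builds named in the submitters' processing notes are GRCm38 and mm10. For aligner, counter, annotation and strand the entry is: not given in the sources used here. Whole-number read counts per gene and FPKM values of the same 6 libraries were deposited. Dividing counts by FPKM and by the library total returned 1 length in every library for 18913 of 18913 genes detected in at least 2 (relative tolerance 1e-05), and this length is the one given here. No replicates were near-identical: chi-square over degrees of freedom was 44.8 to 141.9 for pairs of replicates.

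Counts were tested for DOX against PBS with edgeR 4.0.16 (R 4.3.3): filterByExpr, TMM, quasi-likelihood test, no block, Benjamini-Hochberg adjustment over 13725 genes, threshold 0.05. Standard errors come from the F statistic. Correlations used log2 CPM with a prior count of 2. Alternatives were RLE scaling, library size only, DESeq2 1.42.0, limma-voom (limma 3.58.1), other filters, limma on log2 of FPKM plus 1 or 0.1, a replicate block and leaving out each library. The procedure was tested on simulated data. Carriers and lists were chosen with earlier results of these data known. Named are all carriers, called genes or the 2 to 4 of smallest p from each related list, and the 5 genes most like Fabp1 and Scp2. Some other genes, among them Cyp4a14, Ucp2, Cpt2 and Angptl4, were named after their values were seen. Exocrine pancreas genes, a further list, summed to 4.79 to 6.69 FPKM per library. Positions are from GENCODE M21, promoter sequences from RefSeq. Some items of these lists are not reported here.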

Additional observations from a re-analysis of the deposited data

How the results depend on the processing

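The log2 fold changes of the 7 carriers stayed positive in each of the 105 values computed under an alternative. Each value moved by less than the spread between replicates of its gene, an SD of 0.66 for Fabp1. Leaving out 1 of 3 replicates can hardly move a value by more than that spread. That comparison therefore says little about how stable the values are. When 1 library was left out, they ranged from 2.35 to 3.25 for Fabp1, 0.91 to 1.11 for Scp2, 0.69 to 0.99 for Dbi, 0.87 to 1.31 for Fabp5, 0.61 to 1.20 for Fabp2, 0.57 to 1.19 for Fabp4 and 0.14 to 0.47 for Fabp7. Over all genes, where 4 were called (3 higher, 1 lower), DESeq2 called 176 (128 higher, 48 lower), no filter 61 (45 and 16), limma-voom 2 (1 higher) and log2 FPKM plus 0.1 called 2 (0 lower). Library size only called 2 lower and shifted the median of all genes to -0.149. Leaving out 1 library gave 3 to 4 called, 3 to 4 higher and 0 to 1 lower. With the replicate block, 21 genes were called (17 higher, 4 lower), among them Fabp1 and no other carrier. Same-numbered libraries had correlated deviations of 0.192, 0.13 and 0.00975, and differently numbered ones had -0.183 to 0.0565. The labels give the numbers no meaning, so they were not taken as a pairing in the main fit. Whether they mark a pairing was not tested. For these counts of called genes the cause was not tested.

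With library size only, log2 FPKM plus 1 and log2 FPKM plus 0.1, list medians were -0.15, -0.13 and -0.15 for acyl-CoA binding proteins, -0.04, -0.02 and -0.04 for sterol and phospholipid transfer proteins, -0.23, -0.21 and -0.23 for transcription factors, 0.05, 0.06 and 0.06 for the listed liver transcripts, 0.02 under all 3 for uptake and activation, 0.03, 0.02 and 0.02 for peroxisomal beta-oxidation, and 0.06 under all 3 for PPAR alpha targets. With 1 library left out, the acyl-CoA list ranged from -0.07 to 0.08 and the transcription factors from -0.10 to -0.02. DESeq2 called 2 genes of uptake and activation, 1 transcription factor and 1 PPAR alpha target, where edgeR called 0. In peroxisomal beta-oxidation no filter called 1, and leaving out 1 library 0 to 1, in both cases Acaa1b where 1 was called. Spearman's rho kept 0 of the 5 genes most like Scp2. Ranks of the carriers moved by less than their spread under both alternatives. Since both only rescale each library as a whole, they could hardly change a rank. Depth limits Fabp4 and Fabp2 most, with as few as 194 and 224 counts in a library.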
